A study of Arabidopsis thaliana with 7 samples.

Results

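Binding of E2FB was compared with that of RBR within each of 2 replicates. E2FB is a transcription factor of the E2F family, and RBR (RETINOBLASTOMA-RELATED) is the plant counterpart of the mammalian retinoblastoma protein. The data were lists of peaks, the regions where reads from chromatin immunoprecipitation followed by sequencing (ChIP-seq) pile up above the local background. The peaks of the 4 lists were joined into 31245 sites wherever they shared at least 1 bp. A site was called E2FB-only when it held a peak of both E2FB lists and of neither RBR list, and RBR-only in the reverse case. There were 132 E2FB-only sites (0.422% of all sites), 902 RBR-only sites (2.89%) and 16763 sites with a peak in all 4 lists (53.7%). The other 13448 sites were present in some other combination of lists. Joining the 7 lists of the whole series, which also holds E2FA and E2FC, gave 33385 sites.

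E2FB-GFP plants carry the label pE2FB-E2FB-GFP and RBR-GFP plants the label pRBR-RBR-GFP, meaning a fusion to green fluorescent protein driven by the gene's own promoter. All were Arabidopsis thaliana of the Col0 background, untreated whole seedlings that were 12 days old according to the labels (the paper's methods give another age), and chromatin was precipitated with an antibody against GFP. Each protein had 1 library per replicate, so nothing measures the spread within a replicate. No library came from plants without GFP or from input DNA. Replicate 1 was deposited as broad peaks, whose values are averages over the peak, and replicate 2 as narrow peaks, whose values refer to a summit, so replicate and peak format cannot be told apart. In whole seedlings, a site bound in few cells and a site bound weakly in many cells cannot be told apart either.

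E2F proteins bind DNA as dimers with a DP partner at short GC-rich elements, and they control genes for DNA replication and cell division. RBR has no sequence-specific DNA-binding domain. It reaches chromatin through E2Fs and other factors, represses their targets, and is released when cyclin-dependent kinases phosphorylate it. RBR is also part of the DREAM complex, in which E2F-DP dimers, MYB3R factors and the MuvB proteins come together on cell cycle genes.

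The E2F element TTTCCCGC was the sequence feature by which the classes differed most among those looked for. It is shown here in 30 bases of the TAIR10 genome at the 6 highest-ranked E2FB-only sites that held it within 100 bp of the E2FB summit of replicate 2, written 5' to 3' on the strand of the element, which is in capitals.
AT3G24000, chr3:8672774-8672803, plus strand: atggcattgcgTTTCCCGCctcgtctcctc
AT5G18720, chr5:6243904-6243933, plus strand: taaatgatcatTTTCCCGCcaaatggacta
AT5G55900, chr5:22636570-22636599, minus strand: gtcttgatactTTTCCCGCgcgctatttct
AT3G20760, chr3:7258997-7259026, plus strand: acgtcgataaaTTTCCCGCcaacgtcgaag
ABA1, chr5:26753976-26754005, minus strand: caacaccgaatTTTCCCGCgcggtttagat
AT1G29570, chr1:10335759-10335788, plus strand: cgccctaacagTTTCCCGCcgaaaaaacta
The genes named are those with the nearest transcriptional start site (TSS). The summit lay 36 bp downstream of the TSS of AT3G24000, where the element is in coding sequence, and 58 bp upstream of that of AT5G18720, where it is intergenic. AT3G20760 encodes Nse4, a subunit of the SMC5/6 complex that acts in DNA repair, and its element lay in the 5' UTR. The ABA1 site was far inside that gene, with the element in coding sequence.

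For contrast, the genome around the RBR summit of replicate 2 at 2 of the highest-ranked RBR-only sites is given on the plus strand. The first site has its nearest TSS at the noncoding RNA AT4G06200, under which it is listed below. Its nearest protein-coding TSS is that of IAA14, a repressor of auxin responses (at -3185 bp). The other lies downstream of YUC2, an enzyme of auxin synthesis, 4414 bp from its TSS. Both were chosen after their values were seen, and sites ranked above that at YUC2 are given below.
IAA14, chr4:8353398-8353498: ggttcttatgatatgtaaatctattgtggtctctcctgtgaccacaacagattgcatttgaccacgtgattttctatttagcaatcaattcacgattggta
YUC2, chr4:7719606-7719706: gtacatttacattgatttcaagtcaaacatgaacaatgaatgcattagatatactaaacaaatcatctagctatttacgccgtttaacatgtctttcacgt
Neither window holds TTTCCCGC or its reverse complement. Both sites nonetheless had an E2FA peak in replicate 1, and that at YUC2 also had an E2FC peak.

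The genes that encode the tagged proteins served as a check of the labels. RBR1 (AT3G12280, chr3:3913349-3919359, minus strand) was covered over 94.2% of its length by 1 RBR peak in replicate 1 and over 95.0% in replicate 2, while the leading E2FB peak covered 9.43% and 14.6%, at the promoter end. E2FB itself (AT5G22220, chr5:7360535-7364505, plus strand) was covered over 86.8% by 1 E2FB peak in replicate 1, against 4.08% by the RBR peak at its TSS. In replicate 2, a pair of E2FB peaks covered 20.6 and 65.9% of the gene, against 2.69% for the RBR peak at the TSS. Past the 3' end, a further E2FB peak covered 6.70% and a further RBR peak 6.37% of the gene in that replicate. Each tagged gene was therefore covered along most of its body only in the libraries of its own line. Each line carries a further copy of that gene as the transgene, and the part of this copy in the coverage was not tested.

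Exclusive sites repeated between the replicates more often than the shares of such sites over each list. In replicate 1, 2494 of 27792 sites with a peak of either protein had E2FB without RBR (8.97%), and 4128 had RBR without E2FB (14.9%). In replicate 2, 902 of 25041 sites had E2FB without RBR (3.6%), and 3828 had RBR without E2FB (15.3%). Of the 2494 sites with E2FB alone in replicate 1, 781 had any peak in replicate 2, and 132 of these (16.9%) again had E2FB alone, against the 3.6% of all sites. For RBR alone in replicate 1 the share was 902 of 2485 sites (36.3%), against 15.3% of all sites.

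Most single-replicate exclusivity nonetheless did not repeat. Of the 781 sites, 554 (70.9%) had both proteins in replicate 2 and 95 (12.2%) had RBR alone. Of the 2485 RBR sites, 1505 (60.6%) had both proteins in replicate 2 and 78 (3.14%) had E2FB alone. Starting from replicate 2, E2FB alone repeated at 31.4% and RBR alone at 38.4% of the sites that had a peak in replicate 1. These counts carry no test. With 2 libraries of E2FB against 2 of RBR the smallest two-sided exact permutation p is 0.333, even with the pairing by replicate left aside.

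**Figure D1:**
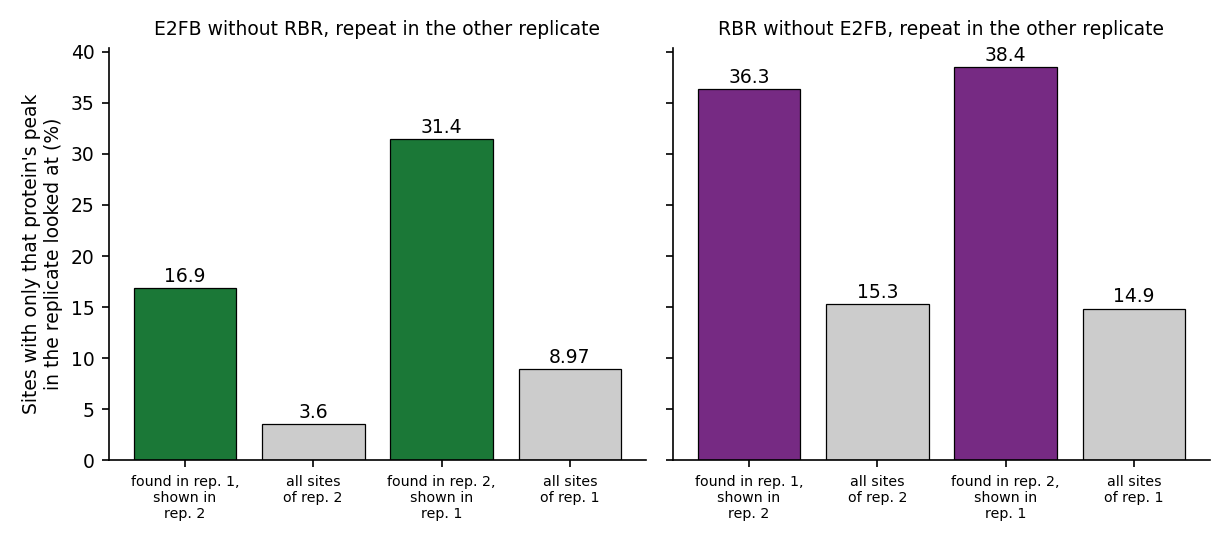
Percentage of sites at which only E2FB (left, green) or only RBR (right, purple) had a peak, for sites where this held in the other replicate and, in grey, for all sites of the replicate. Exclusive sites repeated at 16.9 and 31.4% for E2FB and at 36.3 and 38.4% for RBR, each above its grey bar.

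Exclusive sites were weak and narrow within their own lists. Ranks are given as the percentile of fold enrichment within a list, where 100 is the strongest peak. E2FB-only sites had a median percentile of 30.3 in replicate 1 and 21.4 in replicate 2, and RBR-only sites of 23.6 and 14.1. At sites in all 4 lists the E2FB medians were 62.2 and 64.4 and the RBR medians 64.6 and 67.8. Thus 27.3 and 13.6% of the E2FB-only sites reached the upper part of their lists, above a percentile of 50, and 19.6 and 1.11% of the RBR-only sites.

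Exclusive sites were also narrower than shared sites of the same protein. The median width was 278 and 261.5 bp at E2FB-only sites (replicates 1 and 2) and 290 and 307 bp at RBR-only sites. At sites in all 4 lists it was 600 and 598 bp for E2FB and 669 and 721 bp for RBR. A q-value under 0.01 was reached by 84 of the 132 E2FB-only sites in replicate 1 and by all 132 in replicate 2, and by 661 and 889 of the 902 RBR-only sites.

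Few exclusive sites bordered a peak of the other protein. The nearest RBR peak of either replicate was a median of 1283.5 bp from an E2FB-only site, and 4 of the 132 had one within 100 bp, the closest at 16 bp. The nearest E2FB peak was a median of 1038.5 bp from an RBR-only site, with 10 of the 902 within 100 bp and the closest at 14 bp. On the other side of the 1-bp rule, 19 of the 16763 sites in all 4 lists held no E2FB peak that directly touched an RBR peak in replicate 1, and 17 in replicate 2.

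E2FB-only sites lay nearer to promoters than RBR-only sites. Of the replicate 2 E2FB summits at E2FB-only sites, 42.4% lay upstream of a TSS at no more than 1000 bp (33.9 to 51.3, the 95% exact Clopper-Pearson interval), against 30.6% (27.6 to 33.7) of the RBR summits at RBR-only sites. At sites in all 4 lists the share was 47.0% for E2FB and 45.8% for RBR. With the peak midpoints of replicate 1 the order was the same, with 43.9% (35.3 to 52.8) at E2FB-only and 33.6% (30.5 to 36.8) at RBR-only sites, and these intervals overlap. Intervals here and below cover counting error only, since sites of 1 library are not replicates.

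RBR-only sites were found in gene ends and introns more often than shared sites. The 3' UTR held 20.4% of their summits, against 11.4% at E2FB-only sites and 6.57% of the RBR summits at sites in all 4 lists. Introns held 10.4% at RBR-only and 9.85% at E2FB-only sites, against 4.66% for RBR at shared sites. The 5' UTR held 15.9% at RBR-only and 11.4% at E2FB-only sites, against 25.8% for RBR and 25.1% for E2FB at shared sites. Coding sequence held 12.1% of the E2FB-only and 7.76% of the RBR-only summits.

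The gene with the nearest TSS was protein-coding at 85.6% of the E2FB-only and 81.3% of the RBR-only sites, and a long noncoding RNA at 5.30% and 8.76%. TSSs of both strands within 500 bp of the summit, as at divergent gene pairs, were found at 0 of 132 E2FB-only sites (which allows a share of up to 2.76%) and at 14 of 902 RBR-only sites (1.55%). At sites in all 4 lists the share was 7.47%. The 5 chromosomes carried between 0.753 and 1.48 E2FB-only sites per Mb and between 7.08 and 8.08 RBR-only sites per Mb.

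**Figure D2:**
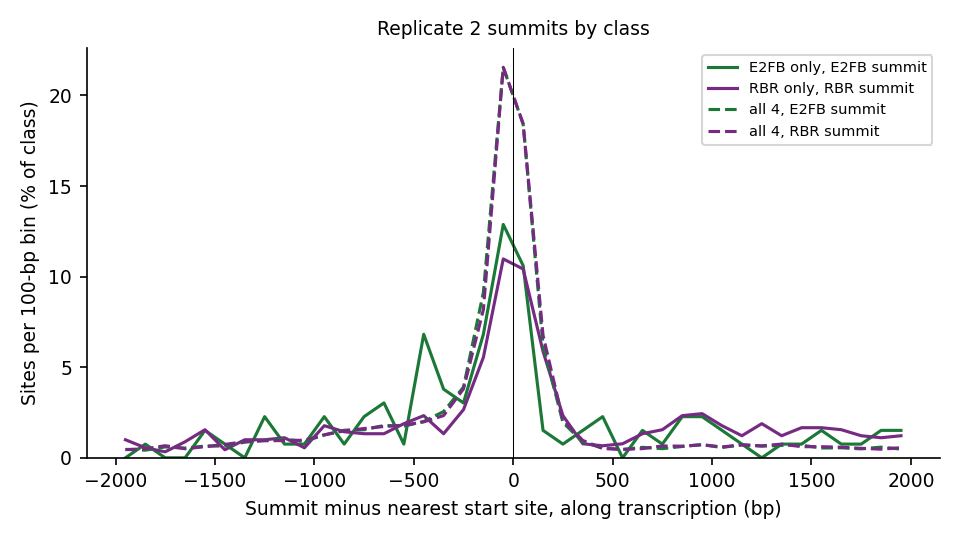
Distance of the replicate 2 summits from the nearest TSS in bp along the direction of transcription, in bins of 100 bp, as a percentage of each class. The E2FB and RBR summits at sites in all 4 lists (dashed) nearly coincide, and both exclusive classes (solid) have a lower maximum at the TSS. Farther than 1000 bp from a TSS lay 34.1% of E2FB-only and 40.9% of RBR-only summits.

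The classes differed in the E2F element. TTTCCCGC stood on either strand in the 201 bp around the summit at 28 of 132 E2FB-only sites (21.2%, 14.6 to 29.2) and at 0 of 902 RBR-only sites, which allows a share of up to 0.408%. At sites in all 4 lists it was found at 323 of 16763 E2FB summits (1.93%) and at 237 RBR summits (1.41%). The same window around all 27444 protein-coding TSSs held it at 0.652%, and windows tiled along the genome at 0.435%. A second form of the element, TTTGGCGC, was found at 5 E2FB-only sites (3.79%), 0 RBR-only sites and 0.865% of the E2FB summits at shared sites, against 0.306% of TSSs. A window with several matches, or with both forms, counted once for each form. The E2FB-only class rests on how presence is defined: with peaks trimmed to 200 bp it had 641 sites, 5.30% of them with TTTCCCGC, and with 20000 peaks of every list 289 sites, 9.69% with it.

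Because exclusive sites rank low, shared sites of low rank were looked at as well. Among the 690 sites in all 4 lists whose RBR percentiles did not exceed the upper quartiles of the RBR-only sites (44.3 and 24.2), 10 (1.45%) held TTTCCCGC around the RBR summit. Among the 3085 whose E2FB percentiles did not exceed those of the E2FB-only sites (54.3 and 40.6), 10 (0.324%) did so around the E2FB summit. The 21.2% at E2FB-only sites thus stood above shared sites of low E2FB rank, and the 0 of 902 at RBR-only sites below the share at shared sites of low RBR rank (interval 0.697 to 2.65%). The shares of both exclusive classes include their sites above these quartiles, so rank is matched only in part.

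The elements were close to the summits. At E2FB-only sites the element nearest the E2FB summit was a median of 18.5 bp away, and at 20 of the 28 sites it was within 30 bp. Base composition differed little, with a median GC content of 35.1% at E2FB-only and 34.8% at RBR-only sites.

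Other elements of growth genes showed smaller differences. AACGG, the core of the element bound by MYB3R factors, was found at 22.0% of E2FB-only and 14.2% of RBR-only sites, against 21.9% of sites in all 4 lists and 18.9% of TSSs. TGGGCC, the core of the site II element bound by TCP factors, was found at 9.09% of E2FB-only and 6.43% of RBR-only sites, against 19.04% of shared sites and 11.6% of TSSs. CACGTG, the G-box bound by bHLH and bZIP factors, was found at 3.03% and 4.32%, against 10.01% and 5.75%. Part of these gaps went with rank. At the 3085 shared sites of low E2FB rank, AACGG was found at 16.7%, TGGGCC at 13.5% and CACGTG at 6.52%. At the 690 shared sites of low RBR rank the shares were 19.6, 11.0145 and 4.78%, the last of which lies within the interval of the RBR-only share (3.09 to 5.86%). None of the 5 motifs contains another, neighbouring matches may overlap, and a match is a description of the letters, not a site of binding.

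Peaks of the other E2Fs, from libraries that the class rule did not use, also set the classes apart. E2FC, which had replicate 1 only, had a peak at 57.6% of the E2FB-only sites (48.7 to 66.1), at 9.65% of the RBR-only sites (7.80 to 11.8) and at 70.6% of the sites in all 4 lists. E2FA had one at 69.7 and 65.9% of the E2FB-only sites (replicates 1 and 2), at 46.7 and 24.8% of the RBR-only sites and at 94.8 and 92.4% of the shared sites. At the 690 shared sites of low RBR rank, E2FC had a peak at 66.7% and E2FA at 90.0 and 54.3%, all above the RBR-only values. At the 3085 shared sites of low E2FB rank, E2FC had a peak at 52.2% and E2FA at 90.2 and 69.0%. For E2FC and for E2FA of replicate 2 these lie within the intervals of the E2FB-only shares (48.7 to 66.1 and 57.2 to 73.9), whereas for E2FA of replicate 1 the E2FB-only share was the lower.

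The 6 highest-ranked E2FB-only sites, by the mean percentile over both E2FB lists, had percentiles of 74.9 to 91.9 in the first and 56.2 to 91.2 in the second E2FB list. The first was on chr3:4157776-4158513 in the 3' UTR of RRP45a (AT3G12990), which encodes a subunit of the RNA exosome, with fold enrichments of 2.096 and 5.34. The next was at the TSS of AT3G24000 (chr3:8672418-8673182), a tetratricopeptide-like protein gene, with 1.98 and 5.19. They were followed by sites at AT5G18720 (1.98 and 3.43), at the pseudogene AT3G28350 (1.82 and 3.92), 112 bp upstream of RPS1 (1.94 and 3.43), which encodes a ribosomal protein S1, and 919 bp upstream of the kinase gene AT3G46140 (2.00 and 3.23). Of these 6, those at AT3G24000 and AT5G18720 held TTTCCCGC, and 5 had an E2FA peak in replicate 1, the RRP45a site being the exception.

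The 6 highest-ranked RBR-only sites had percentiles of 81.6 to 92.6 in the first but 27.7 to 58.3 in the second RBR list. The first was on chr4:8353152-8353622, 1117 bp downstream of the TSS of the noncoding RNA AT4G06200, with fold enrichments of 2.28 and 3.35. It is the site whose sequence is shown above under IAA14. The next were in the 5' UTR of CLL1 (AT3G22820, 2.05 and 3.13) and of AT1G29500 (chr1:10320671-10321233, 2.23 and 2.70), a SAUR gene, one of the small auxin-up RNAs that are induced rapidly by auxin. YUC2 (2.19 and 2.66) and SPL11 (2.2002 and 2.33), a SQUAMOSA promoter-binding-like factor, had such sites downstream of the gene. The sixth, at the noncoding RNA AT5G03205 (2.16 and 2.37), lay upstream of NPH4 (at -1163 bp), an auxin response factor. None of the 6 held TTTCCCGC. Each of the 6 had an E2FA peak in replicate 1, against 46.7% of all RBR-only sites. The sites at YUC2 and AT5G03205 had an E2FA peak in replicate 2 too, and that at YUC2 also had an E2FC peak.

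Because SAUR genes recurred, the family was counted, a choice made after the sites were seen. Of the 78 annotated SAUR genes, 16 (20.5%) had an RBR-only site within 1000 bp of the TSS, against 2.02% of all protein-coding genes. None had an E2FB-only site, but only 0.339% of protein-coding genes had one, so this 0 is no result about the family. A site in all 4 lists was near 51 of the 78 (65.4%), against 63.0% of protein-coding genes. The 16 genes shared 12 distinct sites, because SAUR genes stand in tandem arrays and neighbours share a site. RBR percentiles at these sites ran as high as 90.8 in replicate 1 at AT1G29500 and 42.9 in replicate 2 at SAUR29, and as low as 20.19 and 1.56.

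At the 16763 sites in all 4 lists, the 2 proteins were compared by rank. The E2FB minus RBR percentile had a median of -2.27 points in replicate 1 (quartiles -15.6 and 11.1) and -4.29 points in replicate 2 (-14.4 and 5.33). Across these sites the difference in replicate 1 correlated with that in replicate 2 (Spearman rho = 0.436, n = 16763 sites, which share libraries and neighbourhood). E2FB and RBR percentiles correlated with rho = 0.648 in replicate 1 and 0.760 in replicate 2. The percentiles of 1 protein in its 2 replicates correlated with 0.652 for E2FB and 0.588 for RBR, so that in replicate 2 the 2 proteins were closer to each other than either was to itself in the other replicate.

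Rank differences of more than 25 points were counted. In replicate 1, E2FB was higher by this margin at 1832 of the 16763 sites (10.9%, against 12% of all sites with both proteins in that replicate), and RBR at 2391 (14.3%, against 15%). In replicate 2, E2FB was higher at 902 (5.38%, against 5.45%) and RBR at 1635 (9.75%, against 9.73%). Both replicates agreed at 509 sites for E2FB, called E2FB-higher, and at 549 for RBR, called RBR-higher. The 509 make up 27.8% of the sites of replicate 1 and 56.4% of those of replicate 2, and the 549 make up 23.0% and 33.6%. The opposite call in replicate 2 was made at 35 of the 1832 and at 17 of the 2391 sites.

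Ranks chose these groups and are not a result about them, but the E2F element and the E2FC peaks were not used. TTTCCCGC was found at 53 of the 509 E2FB-higher sites (10.4%, 7.90 to 13.4), at 270 of the 15705 sites in neither group (1.72%) and at 0 of the 549 RBR-higher sites, which allows up to 0.670%. The 0 also held around the RBR summits. E2FC had a peak at 90.4% of the E2FB-higher, 71.0% of the neither and 41.5% of the RBR-higher sites. E2FA differed less, with 97.8 and 99.2%, 94.7 and 92.2%, and 95.4 and 92.5% in replicates 1 and 2. The order of TTTCCCGC shares and E2FC shares in the 3 shared groups was thus the order of the rank difference. It was also the order of the median E2FB percentiles (83.8 and 86.7, 62.6 and 64.4, 32.4 and 23.6 in replicates 1 and 2). The 3085 shared sites of low E2FB rank given above held TTTCCCGC at 0.324% and an E2FC peak at 52.2%. The 0.324% lies below the 0.670% that the 0 of 549 allows. Whether E2FB rank alone gives this order was not tested.

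**Figure D3:**
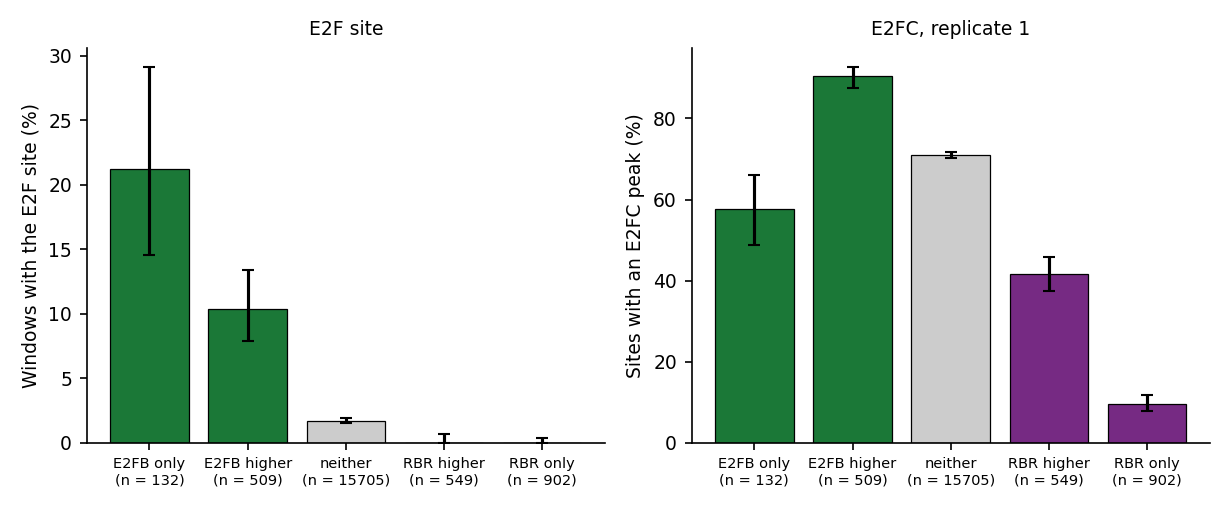
Percentage of sites with TTTCCCGC within 100 bp of the replicate 2 summit (left) and with an E2FC peak (right) in the 5 groups of sites, with 95% exact binomial intervals as bars. The E2F element falls from 21.2% of E2FB-only sites to 0 of the RBR-higher and RBR-only sites, and E2FC peaks are fewest at RBR-only sites (9.65%).

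Seen from the element, the difference was present in most sites that carry it around the E2FB summit. At the 323 sites in all 4 lists with TTTCCCGC there in replicate 2, the E2FB percentile was above the RBR percentile in both replicates at 270 (83.6%), against 24.99% of all 16763 sites. The choice of the E2FB summit may favour E2FB, and the 237 sites with the element around the RBR summit were not looked at in this way. Median percentiles at the 323 sites were 96.4 and 98.0 for E2FB (replicates 1 and 2), against 77.6 and 86.7 for RBR. Their median fold enrichment was 2.29 and 8.37 for E2FB, against 2.00 and 4.88 for RBR, whereas all sites in all 4 lists had 1.70 and 3.52 for E2FB, against 1.85 and 3.75 for RBR.

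**Figure D4:**
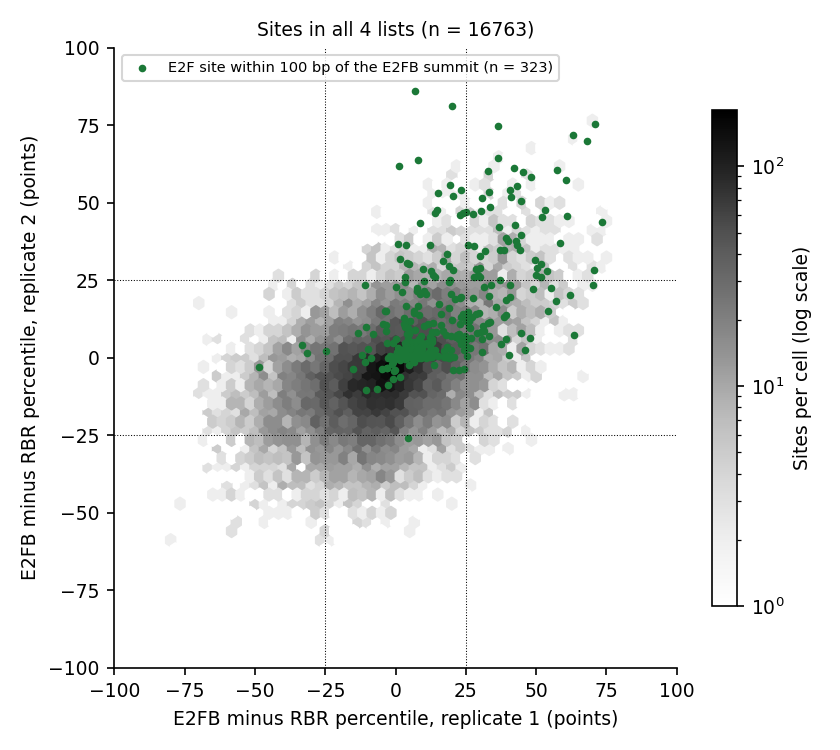
E2FB minus RBR percentile of fold enrichment in replicate 1 (x axis) and replicate 2 (y axis), in points, at the 16763 sites in all 4 lists, with grey cells shaded by the number of sites on a log scale. Green points are the 323 sites with TTTCCCGC around the E2FB summit, 270 of which lie above 0 in both replicates, and dotted lines mark 25 points.

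E2FB-higher sites lay at promoters more often than RBR-higher sites. Of the replicate 2 summits, 35.6% of the E2FB summits at E2FB-higher sites were in a 5' UTR, against 22.4% of the RBR summits at RBR-higher sites. Farther than 1000 bp from any TSS were 10.4% of E2FB-higher and 36.6% of RBR-higher sites. TSSs of both strands lay within 500 bp at 12.0% of E2FB-higher and 2.00% of RBR-higher sites. TGGGCC was found at 24.4% of the E2FB-higher and 8.56% of the RBR-higher sites, and AACGG at 30.1% and 14.4%.

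The 6 largest differences in favour of E2FB exceeded 64 points in each replicate. The site at AT4G19191 (chr4:10496037-10496567) had fold enrichments of 1.96 and 4.11 for E2FB, against 1.48 and 1.64 for RBR. AT4G35130 (chr4:16723127-16723941) had 2.12 and 5.87 for E2FB, against 1.54 and 2.22 for RBR, and both sites, at genes of tetratricopeptide-like proteins, held TTTCCCGC. Their sequences are given as above.
AT4G19191, chr4:10496177-10496206, plus strand: ttaactgttacTTTCCCGCcaggagtcatt
AT4G35130, chr4:16723567-16723596, plus strand: tgcatcttcatTTTCCCGCggaaaattgtc
HAG1, chr3:20213496-20213525, plus strand: tcggcgtagtcTTTCCCGCccccaaattat
HAG1, a histone acetyltransferase, is shown as the next E2FB-higher site with the element, with 2.03 and 5.48 for E2FB, against 1.55 and 2.11 for RBR. The others of the 6, none with TTTCCCGC, were at AT2G22465, AT5G09685, AT1G15940, which encodes a Tudor-domain protein, and SPIK, a potassium channel of pollen.

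The 6 largest differences in favour of RBR exceeded 57 points in each replicate, and none of the sites held TTTCCCGC. The site in the 3' UTR of MYB57 (AT3G01530, chr3:209950-210494), a MYB factor, had 1.402 and 2.06 for E2FB, against 2.14 and 4.19 for RBR. ATAUX2-11 (AT5G43700, chr5:17551148-17552299), an auxin-induced AUX/IAA repressor, had 1.42 and 2.1048 for E2FB, against 1.91 and 3.97 for RBR, downstream of the gene. The rest were at the pseudogene RLP18, upstream of AT4G09890 and AT4G18220, and at the noncoding RNA AT5G02395, 1500 bp upstream of MYB16. SAUR genes appeared here too: 10 of the 78 (12.8%) had an RBR-higher site near the TSS, against 1.65% of protein-coding genes, and 1 had an E2FB-higher site (1.28%, against 2.23%). The 10 genes shared 8 distinct sites. At SAUR63 (AT1G29440, chr1:10305234-10305913) the values were 1.58 and 1.81 for E2FB, against 2.66 and 3.39 for RBR.

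The sites with the highest minimum percentile over the 4 lists were strong for both proteins. RBR1 itself came first, with 3.06 and 28.98 for E2FB, against 2.71 and 34.8 for RBR, where the broad coverage of its gene by RBR given above applies. AT5G62550 (chr5:25107540-25110329), annotated as a microtubule-associated protein, had 2.80 and 21.7 for E2FB, against 2.67 and 9.84 for RBR. RNR1 (AT2G21790, chr2:9292652-9293902), the large subunit of ribonucleotide reductase, which makes deoxynucleotides, had 3.64 and 26.3 for E2FB, against 2.65 and 10.3 for RBR. All 3 held TTTCCCGC, at RNR1 10 bp from the E2FB summit.
RBR1, chr3:3919131-3919160, minus strand: tccgtgttgttTTTCCCGCgcgagatatat
AT5G62550, chr5:25108336-25108365, minus strand: ctttcaaccaaTTTCCCGCtctcaaggcaa
RNR1, chr2:9293260-9293289, minus strand: agttttgggatTTTCCCGCcagcttctagg
The other sites were at AT4G16970, a kinase gene, AT4G03113 and the noncoding RNA AT3G03035, none with the element.

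At shared sites RBR peaks were the wider. RBR was wider than E2FB at 63.5% of the 16763 sites in replicate 1 and 75.8% in replicate 2, with a median E2FB minus RBR width of -57 and -116 bp. At the 11630 sites with exactly 1 peak of each list the medians were -39 and -93 bp. Their positions were alike. At the 8989 of these sites within 1000 bp of a protein-coding TSS, the E2FB and RBR midpoints of replicate 1 differed by a median of 41 bp, and the summits of replicate 2 by 44 bp. The downstream edge of the E2FB peak was a median of 137 bp from the TSS in replicate 1 and 233 bp in replicate 2, against 166 and 288 bp for RBR. RBR reached farther downstream at 66.2 and 70.3% of the sites and farther upstream at 54.0 and 66.8%. Of the first pair of libraries that of RBR was sequenced more deeply than that of E2FB, and the part of depth in widths and in counts of exclusive sites was not tested.

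Gene lists for the functions that E2FB and RBR are known for were read against all sites. All 23 DNA replication genes had a site in all 4 lists within 1000 bp of the TSS, and so did 17 of 19 mitotic genes, 19 of 20 genes of the E2F-RBR-DREAM network, 9 of 14 photosynthesis genes and 6 of 14 developmental regulators, against 63.0% of all protein-coding genes. None of these 90 genes had an E2FB-only or RBR-only site, but such sites were rare near genes in general (0.339 and 2.02% of protein-coding genes), so the 0 is no result about the lists. The rank difference varied between the lists. Its medians over all sites near protein-coding genes, each counted once, were -0.81 and -3.32 points in replicates 1 and 2. Of these 13242 sites, 3663 were higher for E2FB in both replicates and 5258 were lower in both.

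DNA replication genes were strong for both proteins and stronger for E2FB. At their sites the median fold enrichment was 2.79 and 16.7 for E2FB, against 2.21 and 6.82 for RBR, and the E2FB percentile was the higher in both replicates at 21 of 23 genes. The median difference was 8.96 points in replicate 1 and 1.401 in replicate 2, where nearly all are close to the top of both lists. ORC1A and ORC2, subunits of the origin recognition complex, were E2FB-higher. ORC2 had 2.18 and 9.15 for E2FB, against 1.67 and 3.97 for RBR. MCM5, a subunit of the replicative helicase, had 3.61 and 19.1 for E2FB, against 2.77 and 5.69 for RBR. RNR2A, a small subunit of ribonucleotide reductase, went the other way, with 1.73 and 2.64 for E2FB, against 2.2013 and 3.50 for RBR. TTTCCCGC was found at 14 of the 23, against 1.93% of all sites in all 4 lists.

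Mitotic genes had median rank differences of 22.3 and 8.77 points, above those of DNA replication genes, whose percentiles are close to 100. By the median E2FB to RBR ratio of fold the order was the reverse, with 1.15 and 1.399 for mitotic and 1.31 and 2.38 for DNA replication genes. Of the mitotic genes, 14 of 17 were higher for E2FB in both replicates and none lower in both. TTTCCCGC was found at 2 of the 17, too few to set against the 1.93% of all sites in all 4 lists. The kinase gene CDKB1;1 had 2.25 and 4.85 for E2FB, against 1.83 and 2.51 for RBR. CDKB1;2 had 2.1045 and 4.36 for E2FB, against 1.66 and 2.66 for RBR, and CDC20.1, an activator of the anaphase-promoting complex, 1.81 and 4.06 for E2FB, against 1.53 and 2.33 for RBR. CYCB1;4, a B-type cyclin, was E2FB-higher too, while KN, the cytokinesis syntaxin KNOLLE, had nearly equal percentiles (88.8 and 98.0 for E2FB, against 86.6 and 98.4 for RBR).

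In the E2F-RBR-DREAM network the median differences were 20.7 and 6.91 points, and 14 of 19 genes were higher for E2FB in both replicates. E2FB, with the coverage given above, DEL2, an atypical E2F that acts without DP, and ALY3, a MuvB subunit of the LIN9 type, were E2FB-higher. MYB3R5, a MYB3R factor that acts as a repressor of mitotic genes, was RBR-higher, with 1.53 and 2.3006 for E2FB, against 2.12 and 4.12 for RBR. MYB3R4, an activator of mitotic genes, had the opposite sign, with 1.91 and 5.87 for E2FB, against 1.69 and 4.52 for RBR. CYCD3;1, a D-type cyclin that promotes the phosphorylation of RBR, had 2.18 and 8.42 for E2FB, against 2.38 and 10.2 for RBR.

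Photosynthesis genes leaned to RBR in replicate 2 only. Their 9 genes share 8 sites, since LHCB1.4 and LHCB1.5 stand side by side, and over the sites the median difference was -0.0067 points in replicate 1 and -14.1 in replicate 2. In both replicates 4 of the 8 sites were lower and 1 was higher for E2FB. Near all protein-coding genes 5258 of 13242 sites were lower in both, so the 4 of 8 is no result about the list. The light-harvesting genes LHCB1.1 and LHCB3 were RBR-higher, LHCB1.1 with 1.56 and 1.86 for E2FB, against 1.88 and 2.95 for RBR. LHCB6 had the opposite sign, with 2.32 and 7.49 for E2FB, against 2.06 and 5.07 for RBR. The developmental regulators had medians of 3.50 and 2.82 points, with 3 of 6 higher and 2 of 6 lower for E2FB in both replicates. These 6 sites are likewise too few to set apart from all sites. SCR, a regulator of the root stem cell niche, had 1.51 and 1.81 for E2FB, against 1.73 and 2.77 for RBR.

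Among gene families taken from the annotation, 47 of 50 core histone genes had a site in all 4 lists, with medians of 13.9 and 1.97 points, and 24 of the 47 were higher for E2FB in both replicates against 5 lower. Of 323 genes annotated as ribosomal proteins, 200 had such a site, with medians of 6.68 and -1.20 points of opposite sign in the 2 replicates. Of 625 tRNA genes, 404 had one, with medians over 390 distinct sites of -4.21 and -0.18 points. A site in all 4 lists was thus near 94.0% of core histone, 61.9% of ribosomal protein and 64.6% of tRNA genes. The share of all protein-coding genes was 63.0%, so the counts for ribosomal protein and tRNA genes are no result about these families.

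**Figure D5:**
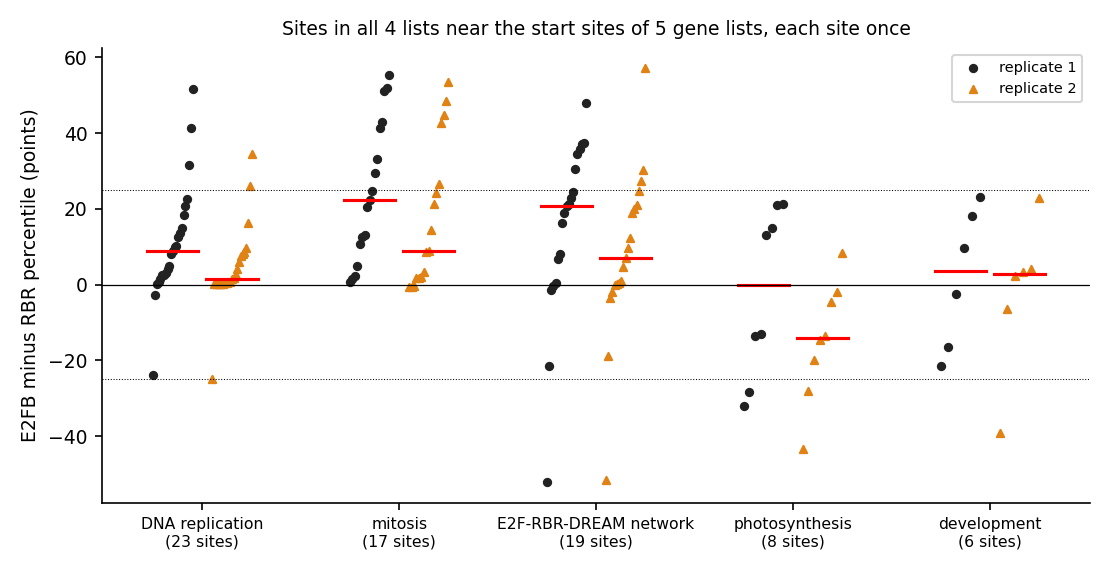
E2FB minus RBR percentile of fold enrichment, in points, at the sites in all 4 lists near the TSSs of 5 gene lists, each site once. Black circles are replicate 1, orange triangles replicate 2, red bars medians and dotted lines 25 points. Sites of mitotic genes have medians of 22.3 and 8.77 points, those of photosynthesis genes of -0.0067 and -14.1 points.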

How the data were processed

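Chromatin of seedlings expressing E2FB-GFP or RBR-GFP had been precipitated with an anti-GFP antibody in 2 replicates. Per the labels, the authors used Trimmomatic 0.38, Bowtie2 2.3.5, SAMtools 1.9 and MACS2 2.2.7.1 on TAIR10, but peak names of replicate 2 mention MACS3, so the replicates may differ in caller release as well as format. The series' design text speaks of a single replicate, while the labels mark a second one. Peaks were called in each library, and the sources used here differ on cutoff and extension size. Fold enrichment in the deposited lists is a ratio of pileup to a background estimated from the same sample, and p- and q-values were deposited as −log10. The summit offset of replicate 2 is a position within the peak. Depth cannot be read from peak lists, so no depth-based interval was given. Fold enrichments of different lists stand side by side in the report, but depend on each library's depth and calling, so E2FB and RBR were ranked by percentiles within a list.

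Organelle peaks were set aside, leaving 26356 and 27033 nuclear peaks for E2FB and 27090 and 28742 for RBR in replicates 1 and 2. Peaks sharing 1 bp were merged. The highest fold in a site stood for a list, ties sharing the mean percentile. TSSs of 37899 genes and sequences came from RefSeq for TAIR10.1, whose nuclear chromosomes equal TAIR10. All 90 listed genes matched by identifier. Named sites were the 6 highest in each class, the 6 highest in all 4 lists by minimum percentile and the 6 largest rank differences in each direction, beside the gene lists. ABA1, HAG1, SAUR genes and the other genes shown for a sequence were chosen after their values were seen. The members, lists and motifs were chosen with earlier results of these data known. No significance test was made, since 2 libraries against 2 cannot reach a two-sided exact p below 0.333, even with the pairing by replicate left aside. Site building, TSS assignment and motif search were tested on simulated data and recovered the planted values. Python 3.11.15, numpy 2.4.6, pandas 2.3.3, scipy 1.17.1 and matplotlib 3.10.9 were used. In all, 20 alternatives were planned and 3 added after the data were seen.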

Additional observations from a re-analysis of the deposited data

Results flagged for a closer look

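Peaks on the organelle genomes were left out of every comparison and were present in all 4 lists above a count of 3. There were 76 in E2FB replicate 1 and 26 in E2FB replicate 2, against 4 in RBR replicate 1 and 97 in RBR replicate 2. E2FB thus had the more in replicate 1 and RBR in replicate 2, a difference that was not tested.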

How the results depend on the processing

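E2FB and RBR were paired by replicate in the within-replicate differences, but no paired test was made. The within-replicate differences are given as values. Of 94 alternative values, 53 stayed within the counting interval, the spread of the replicates or 1.5 times the count, and 41 moved. A change of direction could show only in the rank and width differences, since the other values cannot be negative, and none was seen there. The number of E2FB-only sites rests on peak boundaries and list length. It was 641 with peaks trimmed to 200 bp, 289 with 20000 peaks of every list, 84 when presence needed a q-value under 0.01, and between 902 and 2494 with 1 replicate left out. TTTCCCGC was then found at 5.30% of the E2FB-only sites with trimmed peaks and at 9.69% with 20000 peaks, against at most 0.0824% of the RBR-only sites under the same settings. RBR-only sites numbered 577 with 20000 peaks and between 3828 and 4128 with 1 replicate left out, and sites in all 4 lists 11053 with trimmed peaks. Within 500 bp upstream of a TSS lay 33.3% of E2FB-only and 22.8% of RBR-only summits and, at sites in all 4 lists, 39.1% of the E2FB and 37.9% of the RBR summits. With protein-coding TSSs only, the RBR-only share was 24.9% and the shares at sites in all 4 lists 45.0% for E2FB and 43.9% for RBR, and with midpoints of replicate 1 they were 58.2 and 54.6%. The median rank difference over both replicates was -3.90 points, and between -4.29 and -2.27 with 1 replicate left out. When the midpoint or summit of the other protein's peak had to lie inside the site, E2FA of replicate 1 was found at 53.8% of E2FB-only, 33.5% of RBR-only and 86.2% of shared sites, and E2FC at 5.54% of RBR-only and 67.6% of shared sites. With windows of 401 bp, AACGG was found at 33.3% of E2FB-only, 25.3% of RBR-only and 35.6% of shared sites, TGGGCC at 8.65% of RBR-only and 24.3% of shared sites, CACGTG at 6.65 and 14.7%, and TTTGGCGC at 1.04% of shared sites. At the midpoints of replicate 1, TTTCCCGC was found at 0.913% and TTTGGCGC at 0.477% of shared sites, and with 20000 peaks TTTCCCGC at 2.35%. With 10 or 40 points in place of 25, there were 1781 or 121 E2FB-higher sites, of which 6.51 or 14.0% held TTTCCCGC, and 2962 or 81 RBR-higher sites, of which 0.0338% or none did. The causes of these movements were not tested.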
